A study of Mus musculus with 8 samples.

Results

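The outer layer of the heart, the epicardium, was followed through 8 genes that mark it or the cells that descend from it: *Wt1*, *Upk3b*, *Msln*, *Lrrn4*, *Upk1b*, *Tbx18*, *Tcf21* and *Aldh1a2*. They were taken by name, for their use as markers of this tissue, and make up 8 of the 16994 genes in the count table. These genes, and the marker lists used below, were chosen with earlier results of these data known. Hearts of wild-type mice (WT) and of whole-body TIGAR knockout mice (TKO) were compared by bulk RNA sequencing; TIGAR is a fructose bisphosphatase that steers glucose away from glycolysis, and all TKO mice carried the deletion in every cell type. Infarction was induced in male mice of 16 weeks by permanent ligation of the left anterior descending coronary artery, and infarcted hearts were divided into an infarct, a border and a remote zone. The 4 WT libraries and the 4 TKO libraries were the same set of regions: a normal left ventricle (LV) as reference, the infarct zone, the border zone and the remote zone, with 1 library of each. For the infarct zone 3 mice were pooled per library; the time from surgery to tissue collection, the number of mice in the other libraries, and whether the LV hearts had sham surgery are not stated in the sources used here.

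The epicardium is a single sheet of mesothelium over the heart muscle. In the embryo its cells leave the sheet and become cardiac fibroblasts and the mural cells of coronary vessels; in the adult it is quiet, and after infarction it is known to switch on fetal genes and thicken over the injured wall. The same kind of sheet lines the lungs, the chest wall and the abdominal organs, so its surface genes do not by themselves name the organ. Among the 8 genes, *Upk3b*, *Upk1b*, *Lrrn4* and *Msln* encode proteins of the mesothelial cell surface, *Wt1* is a zinc-finger transcription factor, *Tbx18* and *Tcf21* are transcription factors of the epicardium that persist in mural cells and in cardiac fibroblasts respectively, and *Aldh1a2* makes retinoic acid. *Wt1*, *Upk3b*, *Msln*, *Lrrn4* and *Upk1b* are called the mesothelial members here, by their use as markers.

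The genes lie apart in the genome (GRCm38, GENCODE annotation): *Wt1* at chr2:105126529-105173616 and *Lrrn4* at chr2:132868305-132880891, *Upk3b* at chr5:136038496-136046487, *Msln* at chr17:25748613-25754378, *Upk1b* at chr16:38773184-38800328, *Tbx18* at chr9:87702800-87731260, *Aldh1a2* at chr9:71215789-71296243 and *Tcf21* at chr10:22817281-22820174. *Wt1*, *Upk3b* and *Aldh1a2* are on the plus strand and the others on the minus strand. Only *Tbx18* shares exon sequence with another annotated gene, D030062O11Rik on the opposite strand, so its counts are uncertain to that extent.

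Promoter sequence was at hand for 5 of the 8 genes (RefSeq, GRCm38.p6), and the 250 bases before the RefSeq start of 3 of them are shown because they hold a match to a motif of a factor known in this tissue. *Upk3b* and *Lrrn4*, both surface genes, each hold the TEAD motif GGAATG, written in capitals. *Aldh1a2* holds GCGTGGG, a sequence shared by EGR factors and WT1, also in capitals. The *Upk3b* sequence is the plus strand of chr5:136038246-136038495, that of *Lrrn4* the minus strand of chr2:132880863-132881112, and that of *Aldh1a2* the plus strand of chr9:71215539-71215788, all 5′ to 3′. Since the RefSeq start of *Lrrn4* lies inside the GENCODE gene, 29 bases of its window fall within that gene.
Upk3b: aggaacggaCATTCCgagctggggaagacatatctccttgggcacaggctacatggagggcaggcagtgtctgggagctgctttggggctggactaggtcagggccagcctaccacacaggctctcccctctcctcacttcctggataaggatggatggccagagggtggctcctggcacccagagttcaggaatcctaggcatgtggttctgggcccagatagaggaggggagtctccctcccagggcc
Lrrn4: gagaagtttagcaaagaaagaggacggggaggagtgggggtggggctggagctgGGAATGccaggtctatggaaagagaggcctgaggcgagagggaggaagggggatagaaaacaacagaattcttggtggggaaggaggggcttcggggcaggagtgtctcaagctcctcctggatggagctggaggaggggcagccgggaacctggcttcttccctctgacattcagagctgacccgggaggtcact
Aldh1a2: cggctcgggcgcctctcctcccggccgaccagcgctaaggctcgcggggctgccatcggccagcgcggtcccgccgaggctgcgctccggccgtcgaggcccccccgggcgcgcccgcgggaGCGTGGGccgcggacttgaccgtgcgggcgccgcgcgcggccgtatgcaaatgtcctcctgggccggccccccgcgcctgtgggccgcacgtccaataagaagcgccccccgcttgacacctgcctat
The TEAD motif begins 241 bases before the RefSeq start in *Upk3b*, where it reads CATTCC on the strand shown, and 196 bases before it in *Lrrn4*. The EGR and WT1 motif begins 128 bases before the start of *Aldh1a2*. Searched on both strands, GGAATG was present in 12.6% of 32851 mouse promoters of this length and GCGTGGG in 4.30%. Neither motif, nor the T-box motif GGTGTGA (3.33% of promoters) or the E-box CAGCTG (13.0%), was in the *Tbx18* and *Tcf21* windows. These are matches of letters, and no factor's binding was measured. No promoter entry was used for *Wt1*, *Msln* or *Upk1b*.

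The libraries held 27429240 to 33799249 estimated counts, so 3 counts, taken as the floor, equalled 0.0888 to 0.109 CPM, the counts scaled to an equal library total. Levels below are CPM after scaling by trimmed mean of M values (TMM). That scaling mattered for the infarct zone, where the factor was 1.54 in WT and 1.26 in TKO against 0.866 to 0.956 in the other 6 libraries. *Tigar*, the deleted gene, had 1066 to 2215 counts in the WT libraries and 51 to 87 in the TKO libraries. All 8 members passed the filter of a mean of at least 1 CPM that left 12999 genes for testing. Tests between regions rest on 1 WT and 1 TKO library each, and the 3 zones of a genotype come from divided hearts, so their p-values measure the spread between libraries and not between mice. In bulk tissue fewer cells of a type and less RNA per cell cannot be told apart.

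For every member but *Msln*, the 2 infarct libraries had the highest levels of all 8, as they did for 32.9% of all genes tested. *Upk3b* stood at 32.3 CPM in WT and 21.8 CPM in TKO infarct tissue, while the WT libraries of LV, border and remote zone had 4.42, 3.18 and 6.01 CPM. In the TKO libraries of these regions it had 0.193, 4.79 and 1.96 CPM. The 2 infarct libraries were thus clear of the rest, and 1 library, the TKO LV, was far below it, with 5 counts. *Lrrn4* stood at 11.3 CPM in the WT infarct zone and 7.61 CPM in the TKO infarct zone, against 0.693, 1.40 and 1.94 CPM in WT and 0.154, 1.96 and 1.03 CPM in TKO for LV, border and remote zone. *Upk1b* had 9.48 and 6.13 CPM in the infarct zones of WT and TKO, 0.474, 0.876 and 1.94 CPM in the WT LV, border and remote libraries, and 0, 1.11 and 0.365 CPM in the TKO ones. For both genes the infarct libraries lay above all the others and the TKO LV library lay lowest.

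*Wt1*, which acts above many epicardial genes, spanned a narrower range. It had 11.9 CPM in the WT and 10.2 CPM in the TKO infarct zone, and elsewhere 5.69, 6.88 and 5.72 CPM in WT and 3.24, 4.42 and 4.65 CPM in TKO for LV, border and remote zone. Its infarct libraries did not overlap the other 6. *Tbx18* was at 16.1 and 10.5 CPM in the WT and TKO infarct zones, at 5.0, 7.95 and 4.63 CPM in the other WT libraries and at 5.41, 4.25 and 4.75 CPM in the other TKO libraries, in the same order of regions. *Tcf21* was at 42.3 and 25.8 CPM in the infarct zones, at 7.48, 13.7 and 12.1 CPM in the other WT libraries and at 11.5, 9.34 and 9.03 CPM in the other TKO libraries. In both genes the WT infarct library was the highest and the TKO infarct library the next. *Aldh1a2* had 11.1 and 10.3 CPM in the WT and TKO infarct zones, which were close to each other and above all the rest: 6.42, 4.84 and 4.24 CPM in WT LV, border and remote zone, and 3.90, 4.79 and 3.16 CPM in TKO.

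*Msln*, the surface protein mesothelin, did not follow this pattern. It had 213 counts, or 5.03 CPM, in the WT infarct zone and 0 in the TKO infarct zone. The other libraries with counts were WT remote (27), TKO LV (14) and TKO border (11), and WT LV, WT border and TKO remote were at 0. No region and no genotype held all the libraries with counts. These are counts estimated by a program that shares reads among transcripts, and a 0 in them is an estimate too.

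**Figure D1:**
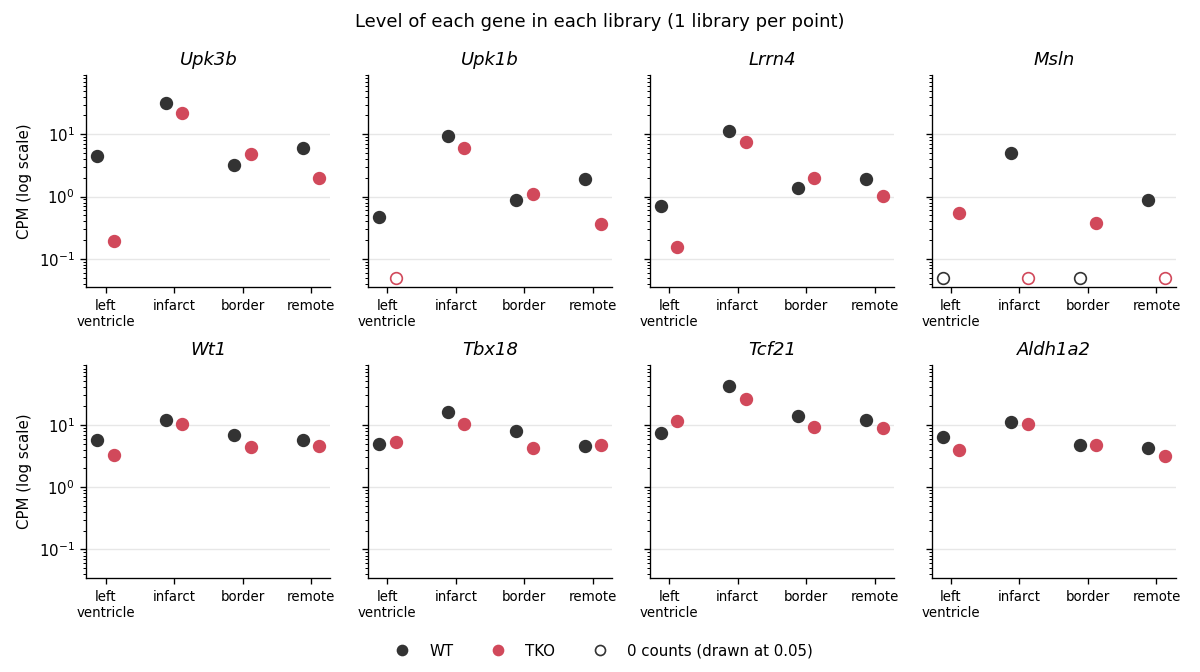
Level of each gene (TMM-scaled CPM, log scale) in each of the 8 libraries, by region, with WT in black and TKO in red; each point is 1 library and open circles are libraries with 0 counts, drawn at 0.05. For 7 of the genes both infarct points lie above the other 6, as for 32.9% of all genes tested, and in *Msln* 4 libraries are at 0.

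Compared per length, as CPM per kilobase averaged over the 8 libraries, *Tcf21* was the most abundant member at 6.98, ahead of *Aldh1a2* at 2.69 and *Upk3b* at 2.64. *Tbx18* (1.55), *Upk1b* (1.22), *Wt1* (1.06), *Lrrn4* (0.878) and *Msln* (0.279) followed. Both libraries of the infarct zone exceeded all 6 others for 7 of the 8 members, and for 32.9% of all genes tested. *Upk1b*, among the 7, passed the filter on low values only through the infarct libraries, so it had to be high there.

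Tested over all libraries with genotype as block, 7 of the 8 members rose in the infarct zone against LV at an adjusted p under 0.05 (edgeR quasi-likelihood test, Benjamini-Hochberg over 12999 genes). This contrast called 56.8% of all genes tested, and 28.2% as higher in the infarct zone. *Upk1b* and *Msln* passed the filter on low values only through the infarct libraries, so *Upk1b* had to be high there; the other 6 members also passed it on the libraries outside that zone, and all 6 were called. The largest log2 fold changes were those of the surface genes *Upk1b* (5.20, SE 0.95, edgeR adjusted p = 0.00447), *Lrrn4* (4.51, SE 0.55, adjusted p = 0.00141) and *Upk3b* (3.80, SE 0.85, adjusted p = 0.00969). The transcription factors moved less: *Tcf21* rose by 1.79, *Wt1* by 1.35 and *Tbx18* by 1.32 on the log2 scale, with edgeR adjusted p from 0.00223 to 0.00748. *Aldh1a2* rose by 1.08 (SE 0.22, edgeR adjusted p = 0.00632). *Msln* was not called (edgeR adjusted p = 0.503). Against the mean of the border and remote zones, which leaves the reference ventricle aside, the same 7 genes were higher in the infarct zone, by 1.05 (*Wt1*) to 2.92 (*Upk1b*) on the log2 scale with edgeR adjusted p from 0.00214 to 0.0102. Here 54.2% of all genes tested were called, 27.7% as higher. Without the WT or without the TKO infarct library, this zone rested on 1 library, and fewer members were called in this contrast. Fewer of all genes tested were called as well. *Upk3b* and *Upk1b* were not among the members called without the TKO infarct library.

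Within each genotype, *Upk3b*, *Lrrn4* and *Upk1b* had larger ratios to LV in TKO, whose LV library was low in them, than in WT. In WT, *Upk3b* was 7.31-fold higher in the infarct zone than in LV (95% counting interval 6.06 to 8.88), *Lrrn4* 16.3-fold (10.3 to 27.4) and *Upk1b* 20.0-fold (11.6 to 37.9). In TKO, whose LV library held 5, 4 and 0 counts of these genes, the ratios were 113 (48.1 to 348) for *Upk3b*, 49.3 (19.0 to 182) for *Lrrn4* and at least 52.9 for *Upk1b* against the floor of 3 counts. These intervals are exact binomial and cover counting error only. For *Tbx18* and *Tcf21* the order was the other way: *Tbx18* was 3.22-fold higher in WT and 1.95-fold in TKO, and *Tcf21* 5.66-fold in WT and 2.25-fold in TKO. *Wt1* was 2.10-fold higher in WT and 3.14-fold in TKO, and *Aldh1a2* 1.73-fold and 2.65-fold. *Msln* was at least 46.0-fold higher than the floor in WT and, with 0 counts in the infarct zone, at most 0.155 of its LV level in TKO. Whether a fold in WT differed from that in TKO was not tested. The interaction tests below ask another question, whether the genotype difference in a region departed from that in the other regions together.

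**Figure D2:**
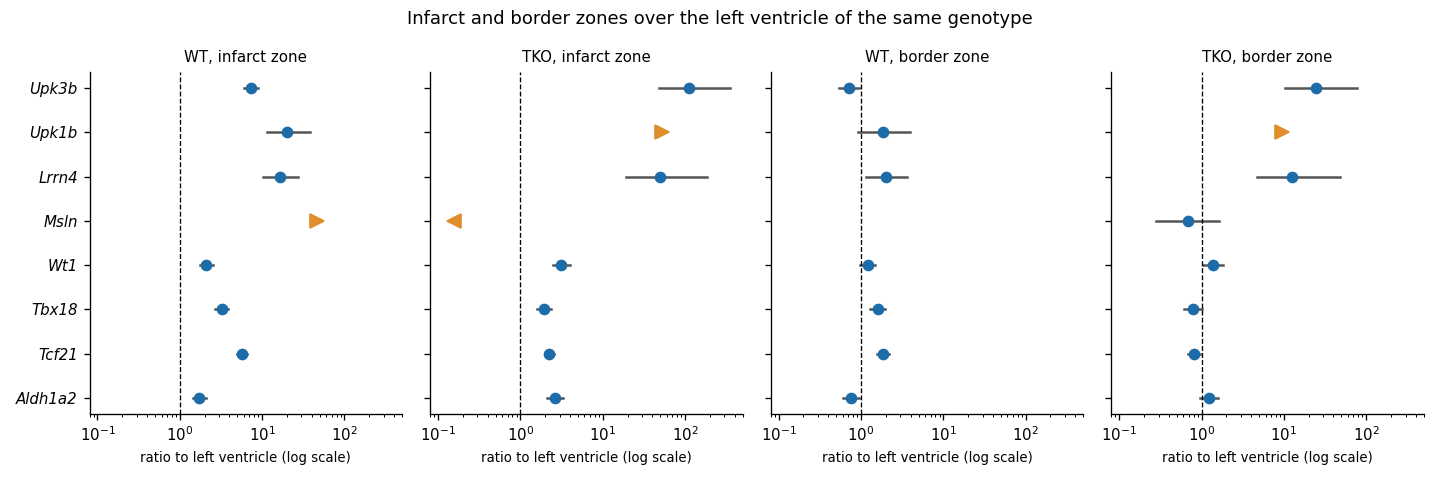
Ratio of TMM-scaled counts in the infarct and border zones to LV within WT and within TKO (log scale), with 95% counting intervals as lines; orange triangles are bounds against the floor of 3 counts and the dashed line marks 1. *Upk3b* lies at 7.31 in the WT infarct zone and at 113 in the TKO one, and its border points are at 0.720 in WT and 24.8 in TKO; no ratio is drawn where both libraries are at 0.

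Outside the infarct zone the members were not called. In the border zone against LV, 0 of the 8 members passed by edgeR, which called 0.715% of all genes tested. The lowest adjusted p by edgeR was 0.150, for *Lrrn4*, and 1 member had an unadjusted p under 0.05. DESeq2 called 1 member, again *Lrrn4* (DESeq2 adjusted p = 0.0135), and 576 of the 12999 genes tested. In the remote zone against LV, edgeR called 0 members and 0.0% of all genes tested, with a lowest adjusted p of 0.376 and 1 member at an unadjusted p under 0.05. There DESeq2 called 0 members and 162 of all genes tested. The border ratios to LV were 0.720 for *Upk3b*, 1.83 for *Tcf21* and 1.59 for *Tbx18* in WT, and 24.8, 0.814 and 0.786 in TKO. These genes thus had their border level on opposite sides of LV in the 2 genotypes. *Upk3b* was below LV in WT, on 5 counts in TKO LV, and the other pair below LV in TKO. The counting interval of *Tbx18* in TKO (0.613 to 1.01) reached 1. *Aldh1a2* also changed side, at 0.753 in WT and 1.23 in TKO (0.944 to 1.60). *Lrrn4* (2.01 and 12.7), *Upk1b* (1.85 and at least 9.60) and *Wt1* (1.21 and 1.36) were above LV in both genotypes. The border and remote zones were not separated from LV by edgeR for any member, and were not tested against each other.

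Between genotypes, no member was called. Across the 4 regions the fitted log2 change was below 0 for all 8, and edgeR called 0 of them, with adjusted p from 0.221 to 0.751; the test called 0.138% of all genes. *Wt1* alone had an unadjusted p under 0.05 by edgeR. Its log2 change was −0.48 (SE 0.14, edgeR adjusted p = 0.221), and its TKO library was below the WT library in 4 of 4 regions. In the remote zone the counting interval of that ratio (0.646 to 1.02) reached 1. DESeq2 called 0 members and 342 of all genes tested. Each region is given next as the ratio of 1 TKO to 1 WT library, without a replicate and so without a test.

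In the LV reference, 5 members were below 1 and *Tcf21*, *Tbx18* and *Msln* above it. *Upk3b* in TKO was 0.0437 of its WT level (95% counting interval 0.0139 to 0.105), on 5 against 121 counts. *Lrrn4* was at 0.223 (0.0551 to 0.670), *Upk1b* at most 0.244, *Wt1* at 0.570 (0.432 to 0.748) and *Aldh1a2* at 0.607 (0.471 to 0.780). *Tbx18* was at 1.08 (0.848 to 1.38), *Tcf21* at 1.53 (1.28 to 1.84) and *Msln* at least 4.94. After adding 2 counts, 3 members (*Upk3b*, *Lrrn4* and *Upk1b*) were at least 2-fold lower and 1 (*Msln*) at least 2-fold higher, against 3.52% and 1.95% of all genes tested. Their median ratio was 0.589, and that of all genes tested 1.01. The further mesothelial genes described below were divided in this pair of libraries. Of the 12 tested, 7 were below 1 and 5 above it, with a median ratio of 0.917 and a range from 0.289 to 14.5. The 5 above 1 were *Krt7*, *Krt8*, *Krt18*, *Krt19* and *Cdh1*. Below 1, like *Upk3b*, *Lrrn4* and *Upk1b*, were *Nkain4*, *Bnc1*, *Rspo1*, *Prg4*, *Cldn15*, *Gpm6a* and *Pdpn*.

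White fat markers set the same pair of libraries apart. The summed level of 6 fat genes was 34.7 CPM in WT LV, 0.85 CPM in TKO LV and at most 7.73 CPM in the other libraries. *Adipoq*, the adipocyte hormone adiponectin, had 370 counts in WT LV and 6 in TKO LV, and *Cidec*, a lipid droplet protein, 388 and 6. Of the 2 fat genes that passed the filter both were called as departing, lower, in the LV genotype difference, while all 6 entered the sum. Fat lies beneath the epicardium on the heart's surface, and its part in the difference of the members was not tested. Lung epithelium markers, at 2.15 and 2.09 CPM, were level between these libraries.

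In the infarct zone all 8 ratios were below 1. *Tcf21* in TKO was 0.609 of its WT level (95% counting interval 0.561 to 0.659), *Upk1b* 0.646, *Tbx18* 0.653, *Lrrn4* 0.672 and *Upk3b* 0.674 (0.617 to 0.737). These 5 lay close together. *Wt1* at 0.853 (0.743 to 0.978) and *Aldh1a2* at 0.929 (0.808 to 1.07) were nearer to 1, and *Msln* was at most 0.0167, on 0 against 213 counts. At 2-fold, 1 member (*Msln*) was lower and 0 higher, against 1.43% and 2.45% of all genes tested. The median of the 8 was 0.663, and of all genes tested 1.01. Among other tissues in these libraries, the summed cardiomyocyte markers were 6946 CPM in WT and 14685 CPM in TKO, and activated fibroblast markers 6226 and 4995 CPM. Leukocyte markers summed to 173 CPM in WT and 117 CPM in TKO, with 4 of the 4 tested below 1 and a median ratio of 0.664. Their pan-leukocyte gene *Ptprc* was called lower in TKO across regions (edgeR adjusted p = 0.0431), which is not a test of this zone. Atrial muscle markers summed to 3046 and 2093 CPM, of which *Nppa* alone made up 2987 and 2086 CPM. Among these markers 5 of 5 were below 1, with a median ratio of 0.144. The part of these tissues in the ratios was not tested.

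In the border zone the members split by kind. *Upk3b* was at 1.51 (1.16 to 1.97), *Lrrn4* at 1.40 (0.928 to 2.13), *Upk1b* at 1.27 (0.740 to 2.19) and *Msln* at least 3.81, whereas *Tbx18* was at 0.534 (0.427 to 0.665), *Wt1* at 0.642 and *Tcf21* at 0.682. *Aldh1a2* was at 0.990. The 4 surface genes were thus above 1 and the 3 transcription factors below it, and for *Lrrn4* and *Upk1b* the interval reached 1. The further mesothelial genes described below were divided here too: 8 of the 12 tested were below 1, with a median ratio of 0.603. *Gpm6a*, *Rspo1*, *Bnc1* and *Nkain4* were above 1, like the surface genes. Below 1 were *Krt7*, *Krt8*, *Krt18*, *Krt19* and *Cdh1*, which were above 1 in LV, and *Prg4*, *Cldn15* and *Pdpn*. At 2-fold, 0 members were lower and 1 (*Msln*) was higher, against 3.25% and 1.23% of all genes tested. In the same pair of libraries, fast skeletal muscle markers summed to 26.4 CPM in WT and 1.38 CPM in TKO. Activated fibroblast markers summed to 2135 and 912 CPM, and atrial muscle markers to 1726 and 494 CPM. Of the atrial sums, *Nppa* made up 1674 and 468 CPM. The part of these tissues in the ratios was not tested.

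In the remote zone the surface genes were again low in TKO. *Upk1b* was at 0.188 (0.0893 to 0.362), *Upk3b* at 0.326 (0.239 to 0.439), *Lrrn4* at 0.531 (0.332 to 0.834) and *Msln* at most 0.112. *Aldh1a2* was at 0.744, *Tcf21* at 0.747, *Wt1* at 0.813 (0.646 to 1.02) and *Tbx18* at 1.02. At 2-fold, 3 members (*Upk3b*, *Msln* and *Upk1b*) were lower and 0 higher, against 2.36% and 1.17% of all genes tested. Lung epithelium markers differed in the same direction in this region, with summed levels of 38.8 CPM in WT and 2.29 CPM in TKO. So did atrial muscle markers, at 2564 and 701 CPM with 5 of 5 below 1. Of these sums, *Nppa* made up 1962 and 489 CPM. Activated fibroblast markers also differed this way, at 839 and 420 CPM with a median ratio of 0.444. The part of these tissues in the ratios was not tested.

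**Figure D3:**
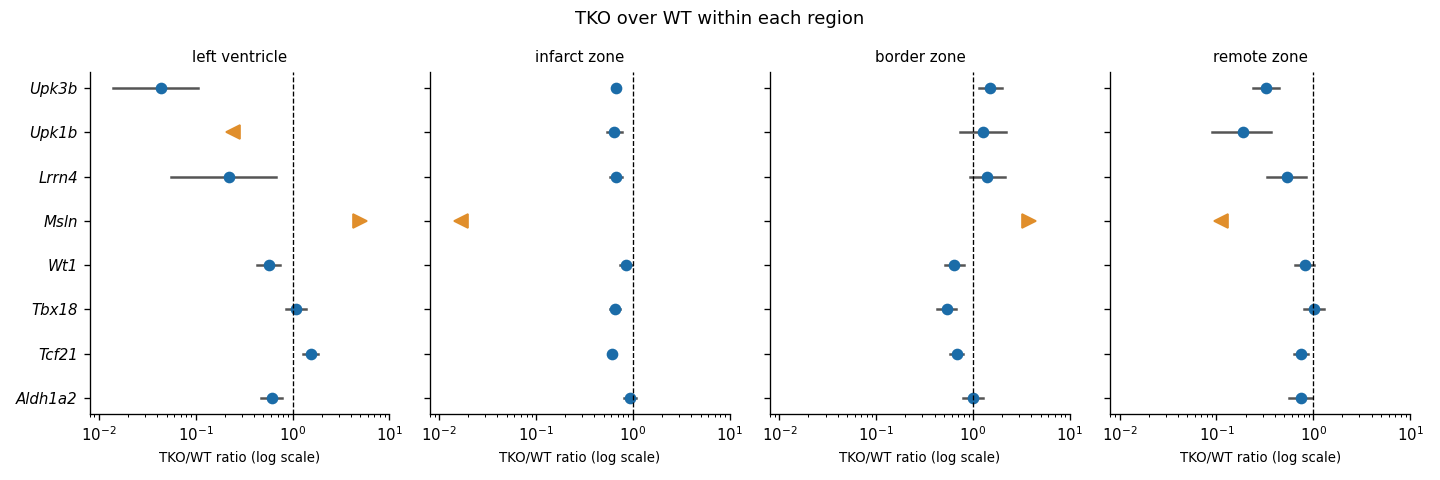
Ratio of TKO to WT for each gene in each region (TMM-scaled counts, log scale); blue points with lines are ratios with 95% counting intervals, orange triangles are bounds where 1 library had 0 counts, and the dashed line marks 1. All 8 genes lie left of 1 in the infarct zone, whereas in LV *Upk3b* lies at 0.0437 and *Tcf21* at 1.53.

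Whether the genotype difference in 1 region departed from that in the other 3 was tested as an interaction. For LV, edgeR called 0 of the 8 members (0.646% of all genes tested), but 2 had an unadjusted p under 0.05: *Tcf21*, with a departure of 1.19 (SE 0.18) on the log2 scale and an adjusted p of 0.0645, and *Upk3b*, with −3.97 (SE 1.20) and an adjusted p of 0.206. DESeq2 called both. Departures for the infarct zone called 0 members and 0.00769% of all genes by edgeR, with 0 at an unadjusted p under 0.05; DESeq2 returned no adjusted p for any of the 8. For the border and for the remote zone, edgeR called 0 members and 0.0% of all genes, all with an adjusted p of 1.0 and with 0 at an unadjusted p under 0.05, and DESeq2 called 0. Each of these tests rests on 1 TKO and 1 WT library of the region.

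Among the surface genes, *Upk3b*, *Lrrn4* and *Upk1b* ran alike over the libraries, and *Msln* did not run with them. Not every step was shared. From WT LV to WT border *Upk3b* went from 4.42 to 3.18 CPM, *Lrrn4* from 0.693 to 1.40 CPM and *Upk1b* from 0.474 to 0.876 CPM. Over the 8 libraries, log2 CPM of *Upk1b* correlated with *Lrrn4* at Pearson r = 0.984 and with *Upk3b* at 0.981, and *Upk3b* with *Lrrn4* at 0.957. *Tbx18* and *Tcf21* had r = 0.948. Over the 6 libraries outside the infarct zone, *Upk1b* had 0.970 with *Lrrn4* and 0.957 with *Upk3b*, while *Tbx18* and *Tcf21* had 0.612 and *Upk3b* and *Tbx18* −0.167. *Aldh1a2* lay closer to *Wt1* (0.449) and *Upk3b* (0.439) there than to *Tbx18* (0.142) or *Tcf21* (−0.294). Over 8 libraries *Wt1* had 0.904 to 0.908 with *Upk3b*, *Lrrn4* and *Upk1b*, and 0.834 to 0.872 with *Tbx18*, *Tcf21* and *Aldh1a2*. Over the 6 outside the infarct zone, *Wt1* had 0.674 to 0.777 with the first set and 0.160 to 0.449 with the second. *Msln* had no value above 0.50 with any member. The 6 libraries outside the infarct zone include TKO LV, with 5, 4 and 0 counts of *Upk3b*, *Lrrn4* and *Upk1b*. These values describe 8 libraries that share tissue regions and scaling, and no p is given.

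**Figure D4:**
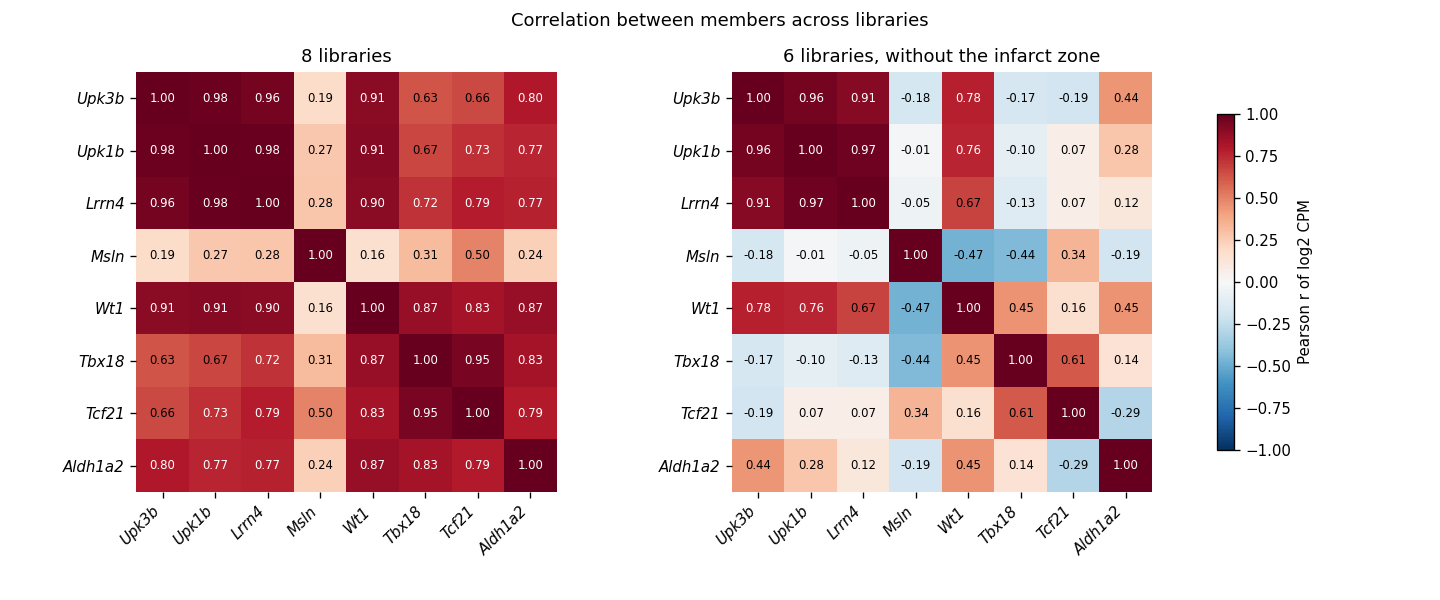
Pearson r of log2 CPM between each pair of members over the 8 libraries (left) and over the 6 libraries outside the infarct zone (right), with red for positive and blue for negative values. *Upk3b*, *Upk1b* and *Lrrn4* form a block that stays at 0.91 or above in both panels.

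Within a library, the counts of *Upk3b* and *Lrrn4* had a ratio of 2.85 in the WT and 2.86 in the TKO infarct zone. In the other libraries the ratio ran from 1.25 in TKO LV, on 5 and 4 counts, to 6.37 in WT LV, on 121 and 19. The summed level of the 5 mesothelial members was 70.0 CPM in the WT infarct zone and 45.7 CPM in the TKO infarct zone, 11.3 and 4.13 CPM in LV, 12.3 and 12.6 CPM in the border zone and 16.5 and 8.0 CPM in the remote zone. *Tbx18*, *Tcf21* and *Aldh1a2* summed to 69.5 and 46.6 CPM in the infarct zone of WT and TKO, and to 18.9 and 20.8 CPM in LV. The first sum relative to the second was thus 1.01 and 0.980 in the infarct zones, and between 0.199 (TKO LV) and 0.787 (WT remote) elsewhere. The sums were thus in nearly the same proportion in both genotypes in the infarct zone, and furthest apart in LV.

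Genes outside the 8 whose levels ran most alike were found by correlation with the mean standardized log2 CPM of the mesothelial members and of the other 3, over the 8 libraries. For the mesothelial members they were *Trim62* (r = 0.994), *Clec4a3* (0.991), *Pdk3* (0.991), *Zfp516* (0.986) and *Ggta1* (0.985). For *Tbx18*, *Tcf21* and *Aldh1a2* they were *Tram2* (0.995), *Prr15* (0.994), *Rcn3* (0.994), *Sp140* (0.993) and *Pilra* (0.993). They were picked as the highest of all genes tested, so these values have no test, and in all 10 the WT infarct library was the highest.

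Further genes of mesothelium took part in the infarct rise. Of 16 listed, 13 were in the table and 12 passed the filter; edgeR called 8 as higher and 0 as lower in the infarct zone against LV (adjusted p under 0.05), *Prg4*, *Gpm6a*, *Pdpn*, *Rspo1*, *Nkain4*, *Bnc1*, *Krt19* and *Cldn15*. Of all genes tested 28.2% were called higher in this contrast, and *Nkain4* and *Bnc1* passed the filter only through the infarct libraries. *Prg4*, the lubricant proteoglycan 4, was at 66.0 and 53.0 CPM in the WT and TKO infarct zones against 17.0 and 10.8 CPM in LV. *Gpm6a*, a membrane glycoprotein of mesothelium, was at 28.0 and 17.3 CPM against 3.94 and 3.67 CPM, and *Bnc1*, the zinc-finger factor basonuclin 1, had 206 and 83 counts against 9 and 1. Between genotypes 0 of the 12 were called. *Krt7*, a keratin of simple epithelia like the called *Krt19*, had 32 counts in WT LV and 203 in TKO LV, and 217 in WT border and 28 in TKO border, and was not called in the infarct zone (edgeR adjusted p = 0.543). TKO thus had the higher count in LV and the lower one in the border zone, the reverse of *Upk3b*. *Calb2*, a marker of mesothelium in other organs, was at 0 in all 8 libraries.

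Retinoic acid genes, the pathway of *Aldh1a2*, moved both ways. Of 16 listed, all were in the table and 12 were tested; 6 rose and 4 fell in the infarct zone against LV by edgeR, a contrast that called 56.8% of all genes. Those that rose included the synthesis enzyme *Aldh1a1* (log2 change 2.62, SE 0.25) and the degrading enzyme *Cyp26a1* (4.49, SE 0.63), which passed the filter only through the infarct libraries, and the receptor *Rxrg* fell by 1.94 (SE 0.20). *Aldh1a1* was at 103 CPM in the WT and 120 CPM in the TKO infarct zone and at 24.0 and 13.1 CPM in LV. No member of this list was called between genotypes. Of the other uroplakins, *Upk1a* had 6 to 23 counts in every library and was not tested.

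Markers of tissue around the heart were also high in the infarct zone, lung in both genotypes and fast skeletal muscle in WT alone. Their part in the rise of the members was not tested. Lung epithelium markers, of which 4 of 7 passed the filter on low values only through the infarct libraries, summed to 187 CPM in the WT and 462 CPM in the TKO infarct zone and to between 2.09 and 38.8 CPM in the other libraries. *Sftpc*, the surfactant protein C of alveolar cells, had 4871 and 10576 counts there. Between genotypes in the infarct zone, all 7 lung genes were higher in TKO, with a median ratio of 2.22, and all 8 members lower. These ratios rest on 1 library per genotype, and the part of lung tissue in those of the members was not tested. Fast skeletal muscle markers summed to 136 CPM in the WT infarct zone, 26.4 CPM in WT border and 0.89 to 2.46 CPM in the other libraries. The TKO infarct zone was among the latter, at 2.46 CPM. Of these 6 muscle genes, 2 passed the filter on the libraries outside the infarct zone. Resident fibroblast markers rose for 8 of 10 and fell for 1 (*Scara5*), activated fibroblast markers rose for 9 of 10, and cardiomyocyte markers fell for 7 of 7 in the same edgeR contrast, where 56.8% of all genes were called.

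**Figure D5:**
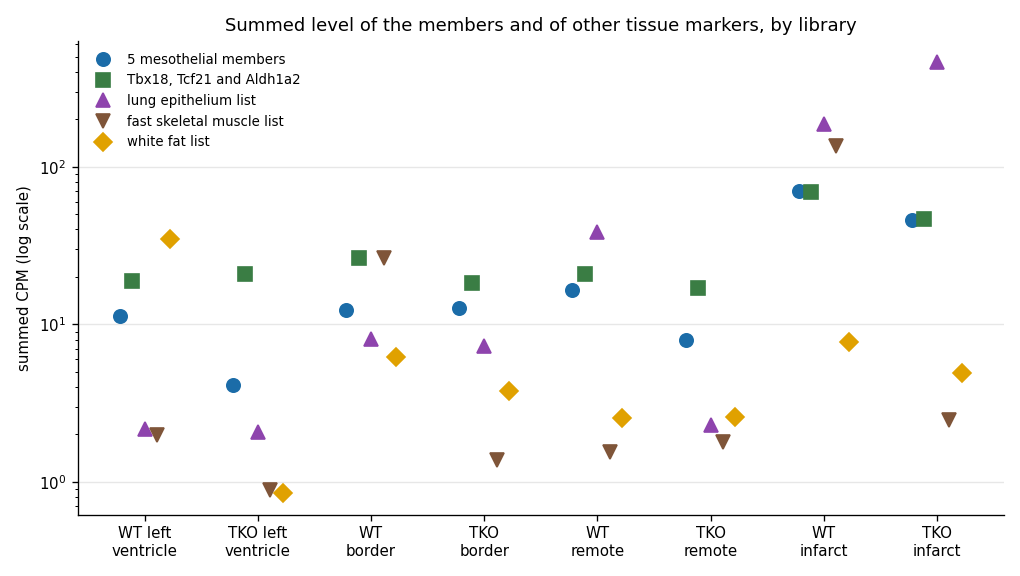
Summed level (TMM-scaled CPM, log scale) of the 5 mesothelial members, of *Tbx18*, *Tcf21* and *Aldh1a2*, and of 3 marker lists of other tissues in each library; each symbol is 1 library. Member sums are highest in the infarct zone, where lung epithelium reaches 187 CPM in WT and 462 CPM in TKO, and white fat is highest in WT LV at 34.7 CPM.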

How the data were processed

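RNA of 8 heart libraries was sequenced, 1 per genotype and region. The deposited values are estimated counts per gene: the authors trimmed reads with Trim Galore 0.6.5, quantified transcripts on mm10 with kallisto 0.46, summed them with tximport and analysed them with edgeR 3.34.1. Estimated counts share ambiguous reads between transcripts, so genes with near copies and small values are uncertain. The exons of *Tbx18* overlap those of a gene on the opposite strand, and whether strand was used in quantification is not given in the sources used here. The deposited counts are whole numbers. Rows without a symbol (0.0947 to 0.210% of counts per library) carry a gene identifier and were kept under it.

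Groups were taken from the sample labels. The 12999 genes averaging 1 CPM or more were scaled by TMM and fitted in edgeR 4.0.16 (R 4.3.3) with region and genotype as terms, with Benjamini-Hochberg adjustment over all of them and a threshold of 0.05. Interaction terms tested each region against the other 3. Ratios of 2 libraries have exact Clopper-Pearson 95% intervals that cover counting error only; where 1 library was at 0, a floor of 3 counts gave a bound. Counts of 2-fold differences used a prior count of 2. Alternatives were DESeq2 1.42.0 (size factors, or its Wald test), total counts, mitochondrial genes left out, no filter, a minimum mean of 10 counts, leaving out each region, and, added after the data were seen, leaving out single LV or infarct libraries. The fits were tested on simulated data. Named genes were the members, up to 4 genes of highest mean CPM per marker list and any called in the contrast described, and the 5 most alike genes per subgroup. The members and lists were chosen with earlier results of these data known. *Bnc1* and *Cyp26a1* were given with values because they were called. Every tested gene of the further mesothelial list was also named by its side of 1 in LV and in the border zone. Promoters come from RefSeq (GRCm38.p6).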

Additional observations from a re-analysis of the deposited data

How the results depend on the processing

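No paired analysis was possible because the labels give no replicate numbers and each group is 1 library. The 7 members called in the infarct zone against LV by edgeR were called under total counts, DESeq2 size factors, mitochondrial genes left out, no filter, the count filter and the DESeq2 Wald test; *Tbx18* had an adjusted p of 0.0566 without the WT infarct library. The contrast with the border and remote zones called 4 members without that library. The border zone against LV called 1 member with the DESeq2 Wald test and 1, *Tcf21* (edgeR adjusted p = 0.0449), without the TKO LV library. The LV departure called 1 member under total counts and 2 with the DESeq2 Wald test. The infarct median TKO over WT ratio was 0.540 under total counts, which shift the median of all genes there by −0.29 on the log2 scale. Uncalled border differences from LV changed sign without the WT LV library, to −0.13 for *Tbx18*, −0.31 for *Tcf21* and 0.22 for *Aldh1a2*, and to 0.028 for *Aldh1a2* under total counts. Uncalled remote differences became −0.42 for *Tcf21* without the WT LV library and 0.18 for *Tbx18* without the TKO LV library. Of 79 ratios of 2 libraries, 18 moved beyond their counting interval under total counts. Over all genes, total counts gave 56 genotype calls and the DESeq2 Wald test 342, against 18; they gave 200 and 576 border calls against 93, and 275 and 280 LV departure calls against 84. The cause was not tested. With 1 library per group, depth limits *Msln*, *Upk1b* and *Lrrn4* outside the infarct zone, where counts were 0 to 59.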
